A study of Canis lupus familiaris with 33 samples.

Results

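Preserved and frozen brain of the same animal were compared in 3 control dogs, numbers 60126, 60460 and 60462. They were chosen as the control dogs with both a formalin-fixed, paraffin-embedded (FFPE) and a fresh-frozen library under 1 dog number. These are 6 of the 33 libraries and 3 of the 25 dogs of the study, which also holds canine oligodendrogliomas. All 6 libraries came from brain labelled healthy. Dog 60126 was a Bolonka Swetna of 2.8 years, dog 60460 a French Bulldog of 6.9 years and dog 60462 a French Bulldog of 8 years. None was labelled as treated or genetically altered. Tissue was taken at necropsy, with collection times from 1 to 18 h after death across the study and no time for a single dog. Frozen pieces were held at -80 °C, and fixed pieces were put in 10% neutral buffered formalin and embedded in paraffin. The brain region of each piece and the age of each block were not given in the labels, so a difference in sampled region and a difference in preservation cannot be told apart. Each preservation of each dog has 1 library. P-values for genes in the paired fits thus rest on how far the within-pair differences vary between dogs, and on spread pooled across genes. These are 3 dogs unless a fit leaves 1 out or adds tumour dogs.

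Formalin links RNA to protein and adds chemical groups to its bases, and embedding and storage break the strands into fragments. RNA from FFPE tissue is therefore usually short, and reads from it fall on what survives extraction and library preparation. Total RNA libraries hold transcripts without a poly(A) tail as well, including small nuclear and nucleolar RNAs and the RNAs of the mitochondrial genome, which encodes ribosomal RNAs, transfer RNAs and subunits of the respiratory chain. The deposited table lists Ensembl identifiers with no gene name or biotype, and 0 of them could be paired with a name. Markers of neurons and glia could not be read, so the labelled tissue was not checked against them. Genes are described by annotation instead: length of exons, number of exons, position and chromosome.

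Depth differed far more in FFPE than in frozen tissue. The total of fragments counted in genes was 32584840 in the library labelled FFPE of dog 60126, 9114673 in FFPE 60460 and 1596967 in FFPE 60462. The frozen libraries of the same dogs held 26726025, 19433146 and 25511851 counts. The FFPE to frozen ratio was thus 1.22, 0.469 and 0.0626. Values at matched depth below come from each library thinned at random to 1596967 counts.

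The library labelled FFPE of dog 60126 went against its label. It lay among the frozen libraries by most measures. Of 11 exclusive gene classes, 10 held a share of its counts within the range of the 12 frozen libraries of the study, against 4 for FFPE 60460 and 1 for FFPE 60462. A single-exon feature of 1869 bp on the unplaced scaffold AAEX03025866.1, positions 1344 to 3212 of CanFam3.1, gave the widest separation. This feature was chosen with its values in view, and it overlaps 1 other annotated gene. It held 0.0051% to 0.0438% of counts in the 12 frozen libraries and 0.0655% to 15.2% in the 20 other FFPE libraries. In the library labelled FFPE of dog 60126 it held 0.00796%, inside the frozen range. The same order was found for single-exon features of over 100 to 200 bp, with 0.0521% to 0.296% in frozen tissue, 0.409% to 5.80% in the other FFPE libraries and 0.219% in this library. Single-exon genes of 900 bp or more held 0.566% to 0.765% in frozen tissue, 0.777% to 16.4% in the other FFPE libraries and 0.578% here. This class contains the 1869 bp feature, so it is not a separate measure. Of the 1.66% of counts that the class held in FFPE 60460, the feature gave 1.16%. In FFPE 60462 it gave 1.22% of the 1.76%. The total of the library labelled FFPE of dog 60126 was also the highest of all 33 libraries. Whether the label or the state of this block accounts for these values was not tested. Counts of genes called and several other results are given with and without dog 60126.

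**Figure D1:**
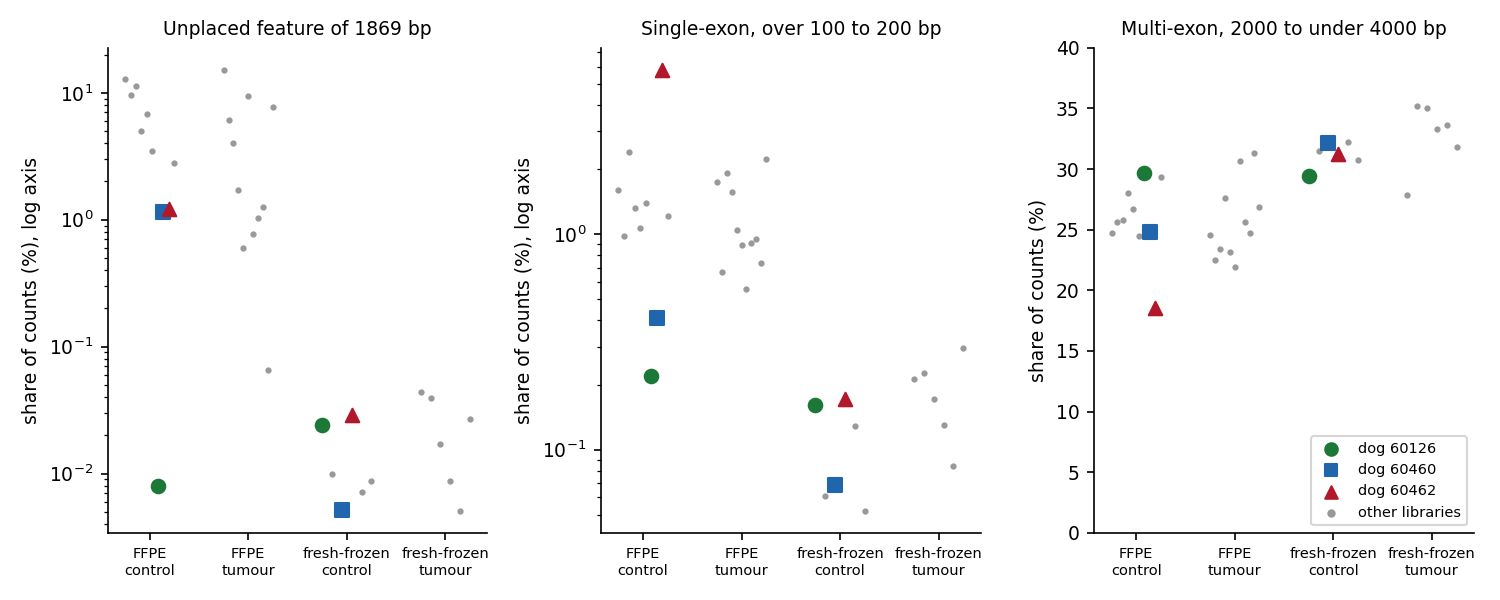
Share of counts (%) per library in the unplaced 1869 bp feature and in single-exon features of over 100 to 200 bp (both log axes), and in multi-exon genes of 2000 to under 4000 bp (linear axis), by preservation and tissue. Coloured symbols are the 3 control pairs and grey dots the other libraries; the library labelled FFPE of dog 60126 lies at 0.00796% in the plot of the unplaced feature, among the frozen libraries, while FFPE 60460 and 60462 lie at 1.16% and 1.22%.

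The 3 pairs ranged from near identity to wide divergence. Across 11810 genes whose average log2 CPM was 2 or more (CPM, counts scaled to a common library total), the Pearson correlation of FFPE with frozen log2 CPM was 0.990 in dog 60126, 0.886 in dog 60460 and 0.715 in dog 60462. At matched depth the correlations were 0.971, 0.884 and 0.743, so the order of the dogs did not depend on depth. These are descriptions across genes, which are not independent replicates. The median absolute within-pair difference at matched depth was 0.23, 0.49 and 0.69 on the log2 scale. Differences of over 2-fold were found for 5.09%, 19.1% and 33.4% of genes in dogs 60126, 60460 and 60462. In dog 60460 more genes were over 2-fold higher in FFPE (11.7%) than lower (7.31%). In dog 60462 the order was turned, with 13.9% higher and 19.5% lower. The chi-square of the counts per degree of freedom over genes was 15.9 in dog 60126, 240 in dog 60460 and 224 in dog 60462. It takes each count as an independent molecule, which amplified copies are not. Each library was counted as 1 sample.

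**Figure D2:**
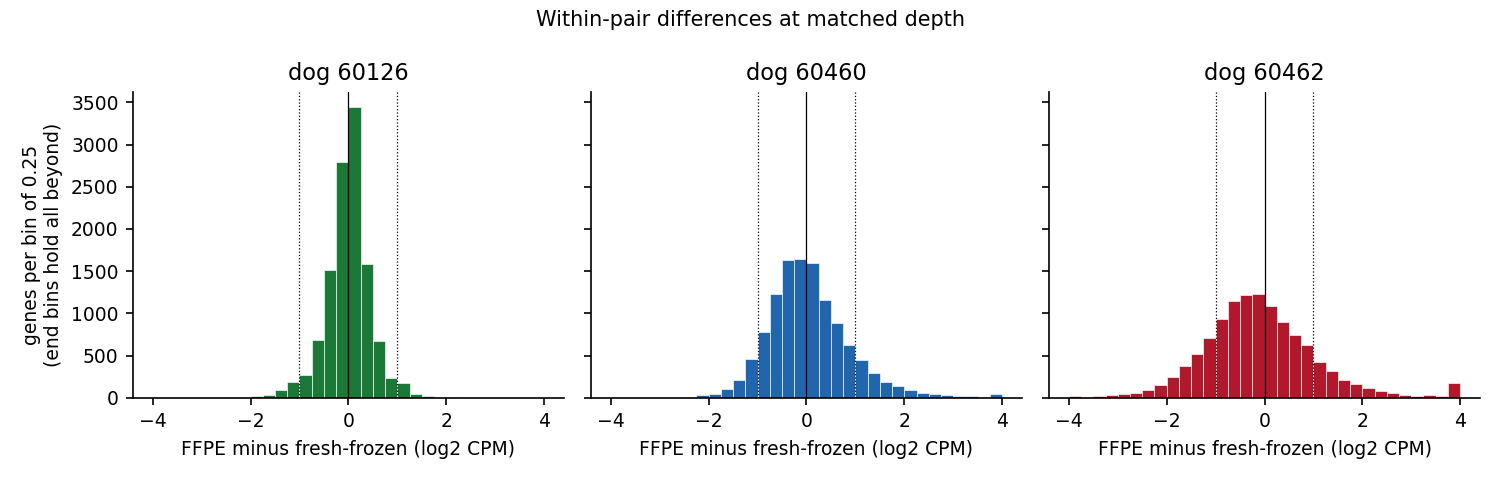
Number of genes by FFPE minus fresh-frozen difference (log2 CPM, bins of 0.25) in each dog, for 11810 genes at matched depth, with all larger differences in the end bins. Dotted lines mark a 2-fold difference, which 5.09%, 19.1% and 33.4% of genes exceed in dogs 60126, 60460 and 60462.

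Each library was also set against the other control libraries, on log2 CPM with 0.5 added to each count. The library labelled FFPE of dog 60126 had a correlation of 0.989 with its own frozen library and 0.960 with frozen 60462. With the 7 FFPE controls of other dogs its median was 0.791 (range 0.550 to 0.827). FFPE 60460 stood at 0.879 with its own frozen library, at 0.879 with the median of 3 frozen controls of other dogs and at 0.890 with the median of those 7 FFPE controls. With frozen 60126 and frozen 60462 it stood at 0.882 and 0.865, so its own frozen library lay between those of the other 2 dogs. FFPE 60462 stood at 0.718 with its own frozen library, at 0.713 with frozen 60126, at 0.712 with FFPE 60460 and at 0.538 with frozen 60460. Its median with the 3 other frozen controls was 0.558. The frozen libraries fell apart as well: 60126 and 60462 stood at 0.966 with each other, and 60460 at 0.899 and 0.895 with them but at a median of 0.969 with the 3 other frozen controls.

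Within-pair differences of dogs 60460 and 60462 went in a shared direction more often than not. Their correlation across the 11810 genes was 0.60 (0.49 at matched depth), and 69.0% of genes had the same sign in both dogs. Dog 60126 shared no such pattern, with correlations of -0.19 and -0.08 and the same sign in 41.4% and 41.1% of genes. In all 3 pairs 987 of the 11810 genes were higher and 2053 lower in FFPE. Signs that fell independently in the 3 pairs would give a total of about this size. These counts are therefore not read as a shared effect. The spread between dogs was wider in FFPE. The SD over 3 dogs had a median of 0.61 in FFPE and 0.37 in frozen tissue on the log2 CPM scale, or 0.58 and 0.40 at matched depth. At matched depth it was wider in FFPE for 68.2% of genes.

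With all 3 dogs, 9 genes passed as higher in FFPE and 0 as lower. The test was edgeR's quasi-likelihood test with the dog as a block, over 16853 genes with Benjamini-Hochberg adjustment at 0.05. The 9 are 0.0534% of the genes tested. At an unadjusted p under 0.05, 675 were higher and 314 lower. DESeq2 called 153 genes higher and 2 lower, and limma voom 31 and 0, each with 7 of the 9 among them. Without the dog as a block, or with a mean of at least 50 counts, 0 were higher. Of the 9, 7 were single-exon features of 70 to 107 bp and 2 were multi-exon genes. Single-exon features of at most 300 bp were 3.27% of the genes tested. In 8 of the 9 at least 1 frozen library had no count, and 8 of the 9 had their highest log2 CPM in FFPE 60462. Features near 0 in frozen tissue can pass the filter on low counts only through the group where they are high. The 9 were higher in all 3 pairs in 8 of 9 cases, and 5 overlap another annotated gene. Among the 9, a 107 bp feature at chr7:40186508-40186614 of CanFam3.1, had no count in any frozen library against 6, 7 and 44 counts in FFPE of dogs 60126, 60460 and 60462. For the other 8 the fitted log2 difference ran from 2.43 to 10.10. Leaving out dog 60126, 60460 or 60462 gave 705, 42 or 0 higher genes.

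ENSCAFG00000029523 was the only one of the 9 counted in all 6 libraries. It is an 80 bp single-exon feature on the minus strand at chr15:15544814-15544893 of CanFam3.1 and overlaps 1 other gene. Dog 60126 gave 728 counts in the library labelled FFPE and 160 in the frozen one, dog 60460 gave 185 and 108, and dog 60462 gave 280 and 489. On the log2 CPM scale these are 4.59 and 2.69, 4.38 and 2.38, and 7.52 and 4.16. FFPE was higher within every dog, by 1.89, 2.00 and 3.37. The groups did not overlap, since the lowest FFPE value, 4.38, lies above the highest frozen value, 4.16. The feature was picked among the 9 for the size of its smallest within-pair difference. That choice favours both a rise in every dog and a lack of overlap, so neither carries added weight. The mean was 5.50 ± 1.76 in FFPE and 3.08 ± 0.95 in frozen tissue (SD, n = 3 each), and the edgeR log2 difference was 2.43 ± 0.38 (SE, adjusted p = 0.0375). Leaving out dog 60462, it did not pass, at 1.99.

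ENSCAFG00000031599, of 107 bp on the plus strand at chr15:16539723-16539829, also overlaps 1 other gene. Its counts in FFPE and frozen tissue were 7 and 1 in dog 60126, 10 and 0 in dog 60460, and 69 and 2 in dog 60462. FFPE was higher in every dog, by 1.21, 3.55 and 8.00 on the log2 CPM scale, and the groups did not overlap. The same rule picked this feature, so neither point carries added weight here. The fitted log2 difference was 7.86 ± 1.18 (SE, edgeR adjusted p = 0.0374). With frozen counts of 1, 0 and 2, the feature passed the filter on low counts through FFPE, where it is high. Over the summed counts of 86 and 3, the ratio of CPM was 47.5, with an exact 95% interval of 15.7 to 235 for counting error alone. This ratio sums over the dogs and leaves the pairing unused, so it is not the ratio of any 1 dog. FFPE 60462 held 77.5% of all counts of this feature.

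Without dog 60126 far more genes passed. The spread of each gene then rests on 2 pairs and on what edgeR pools across genes. Of 15622 genes tested, 896 passed the same edgeR test (5.74%), 705 as higher (4.51%) and 191 as lower (1.22%) in FFPE. Of the 9 genes above, 8 were again called. Short single-exon features, of at most 300 bp, made up 222 of the 705, and 222 of the 415 tested were higher (53.5%) and 1 lower. The table holds 3344 such features, and 1 may pass the filter on low counts through the group where it is high. The 53.5% thus describes those tested and not the class, and the filter itself favours higher over lower. Multi-exon genes made up 452 of the 705 (64.1%) and 173 of the 191 (90.6%), beside 93.1% of the genes tested. Higher genes had a median exonic length of 1653 bp, lower genes 2269 bp and all tested genes 2046.5 bp. Unplaced scaffolds held 14 higher and 2 lower genes of 96 tested, and the mitochondrial genome 12 higher and 0 lower of 37. Dog 60126, which this fit did not use, was then read for the same genes. It had the sign of the other dogs in 310 of the 705 higher genes (44.0%) and in 29 of the 191 lower genes (15.2%). The rate of 39.6% over all genes tested pools both directions, so it is no background for either. Of the 16853 genes tested with dog 60126 included, 49.7% were higher in its FFPE library, above the 44.0%. The median difference in dog 60126 was -0.06 for the higher genes, 0.17 for the lower genes and 0.0004 for all genes of this fit.

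Of the lower genes, 2 were picked for their size of change after their values were seen, and both are multi-exon genes. ENSCAFG00000008571 (chr27:5085835-5100974 of CanFam3.1, 15 exons) had 190 counts in FFPE and 2634 in frozen tissue of dog 60460, and 8 and 1036 in dog 60462. It fell by 2.59 ± 0.46 on the log2 scale (SE, edgeR adjusted p = 0.00111). In dog 60126 it had 959 and 777 counts, a within-pair difference of 0.03. ENSCAFG00000030242 (chr6:22815738-22906537, 2 exons) had 13 and 336 counts in dog 60460 and 0 and 201 in dog 60462, and fell by 3.72 ± 0.78 (SE, adjusted p = 0.00597). Dog 60126 had 331 and 247 counts for it, a difference of 0.15. Neither gene passed with 3 dogs (adjusted p = 0.727 for both).

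Short single-exon features had a positive median difference in FFPE, as did the mitochondrial features described below. Annotated features of this size are often small nuclear, small nucleolar or other small RNAs, though the files give no biotype. Of the 3344 in the table, 551 passed the filter on low counts, and 7 of those were called higher and 0 lower with 3 dogs, beside 0.0534% and 0% of all genes. Their median log2 difference was 2.38, beside -0.03 over all 16853 genes tested. Within dogs 60126, 60460 and 60462 their median difference was 0.14, 2.33 and 3.50, and at matched depth 0.00, 0.72 and 2.18. The fitted median was 3.57 without dog 60126, 1.5 without dog 60460 and 1.01 without dog 60462. The shift was not even over length. It was 2.42 for features of at most 100 bp (119 tested), 3.0 for over 100 to 200 bp (328 tested) and 0.47 for over 200 to 300 bp (104 tested). Since a feature may pass the filter through the group where it is high, these medians describe those tested and not the class.

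As a share of all counts, short features held 0.629% and 0.545% in the 2 libraries of dog 60126, 1.51% and 0.400% in dog 60460, and 6.93% and 0.722% in dog 60462 (FFPE first). FFPE was higher in all 3 dogs, but the groups overlapped, because the library labelled FFPE of dog 60126 lies below frozen 60462. The mean within-pair difference was 2.47 ± 3.28 percentage points (SD, n = 3). It was 3.66 without dog 60126 and 0.599 without dog 60462. A two-sided exact sign-flip test over 3 pairs gave p = 0.25, the smallest that 8 sign patterns allow. This test can therefore not pass a threshold of 0.05 for any library measure.

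A few features carried most of these counts. The top 3 held 53.5% to 57.6% of the short-feature counts of each of the 6 libraries. Their makeup differed between libraries and not simply between dogs. The same 3 led in both libraries of dog 60126 and in FFPE 60460. Frozen 60460 and frozen 60462 shared another top 3, and FFPE 60462 had its own. The 102 bp feature at chr16:1832981-1833082 held 0.0761% of all counts in the library labelled FFPE of dog 60126 and 0.0373% in the frozen one. It held 0.134% and 0.0121% in dog 60460, and 2.62% and 0.0419% in dog 60462. FFPE was thus higher by 2.04, 11.1 and 62.6 times. The same order was found for 2 features of 113 bp: at chr16:1828824-1828936 the ratios were 1.76, 38.2 and 202, and at chr13:2859051-2859163 they were 1.45, 28.1 and 177. Of the 8 features with the largest share in any of the 6 libraries, 2 more, of 117 and 134 bp, were far higher in FFPE of dogs 60460 and 60462. At chr2:84363087-84363203 the ratios were 1.10, 80.6 and 144, and at chr2:71861355-71861488 they were 1.69, 78.1 and 49.0. The 3 longer ones had other orders. The 281 bp feature at chr37:28667584-28667864 had ratios of 1.00, 5.91 and 1.07. The 300 bp feature at chr8:26412228-26412527 had 1.10, 5.63 and 0.213, and thus was lower in FFPE of dog 60462. The 273 bp feature at chr11:52193814-52194086 had 0.689, 0.675 and 1.35, lower in FFPE of dogs 60126 and 60460. None of the 8 passed the edgeR test with 3 dogs (adjusted p from 0.727 to 0.951).

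Multi-exon genes were 92.1% of the genes tested, so the scaling itself holds their median log2 difference near 0. It lay between -0.06 and 0.00 in 4 classes of exonic length. Single-exon genes of over 300 and under 900 bp had a median of -0.19, as did those of 900 bp or more. Genes that span 500 kb or more, many of which are long neuronal genes in mammals, had a median of -0.30 over 191 tested. Their within-dog medians were 0.04, -0.32 and -0.61 in dogs 60126, 60460 and 60462. In the fit without dog 60126, 6 of 190 such genes passed as higher (3.16%) and 5 as lower (2.63%), beside 4.51% and 1.22% of all genes, and the median was -0.37. By chromosome the median ran from -0.14 on chromosome 20 to 0.14 on chromosome 32 over 39 chromosomes. As shares of counts, multi-exon genes of 2000 to under 4000 bp held 29.7% and 29.4% in dog 60126, 24.8% and 32.1% in dog 60460, and 18.6% and 31.3% in dog 60462 (FFPE first). With mitochondrial genes left out of the total these became 36.6% and 36.7%, 34.2% and 36.2%, and 31.1% and 36.9%.

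**Figure D3:**
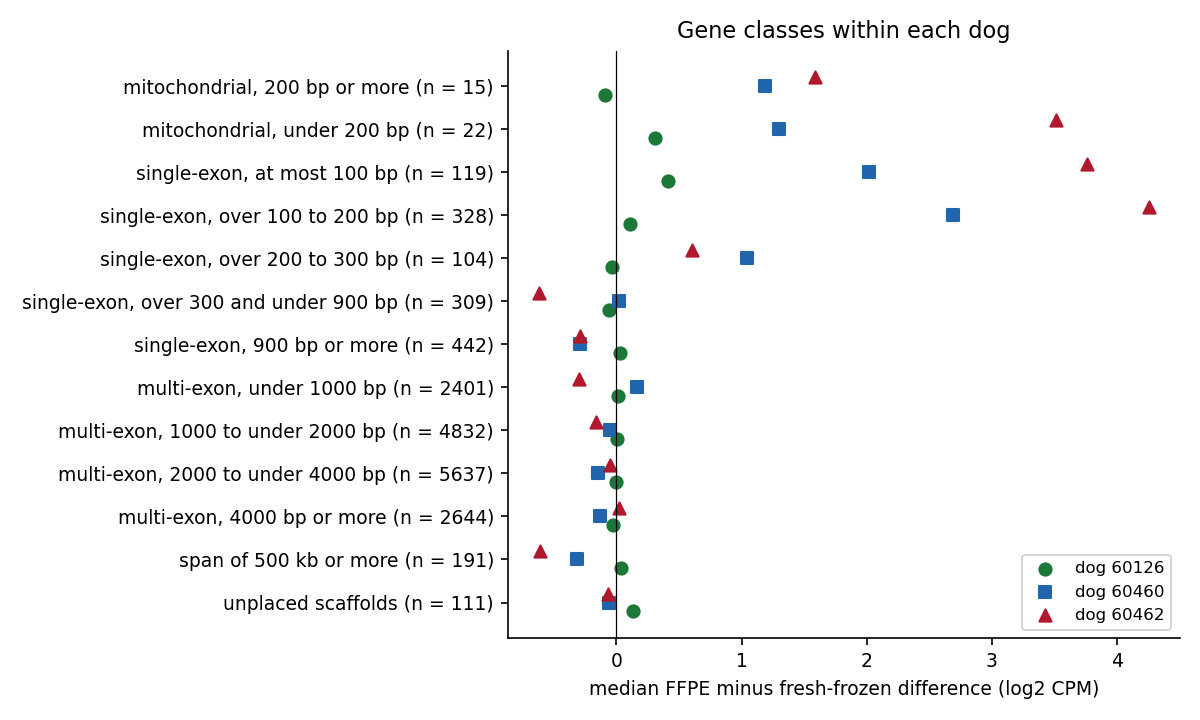
Median FFPE minus fresh-frozen difference (log2 CPM) of each gene class in each dog, with the number of genes tested; points are dogs and the line marks 0. Single-exon features of over 100 to 200 bp have medians of 0.11, 2.69 and 4.26 in dogs 60126, 60460 and 60462, while the 4 multi-exon classes lie between -0.30 and 0.16.

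Unplaced scaffolds held a larger share of counts in FFPE of 2 dogs. The share was 0.152% and 0.146% in dog 60126, 1.41% and 0.215% in dog 60460, and 1.42% and 0.180% in dog 60462. Most of it in FFPE 60460 and FFPE 60462 was the 1869 bp feature named above, at 1.16% and 1.22% of counts. In the frozen libraries of these dogs that feature held 0.00517% and 0.0290%. In dog 60126 the frozen library held more of it, 0.0240% against 0.00796%. The median difference of the 111 scaffold genes tested was -0.07. Without dog 60126, 14 of 96 passed as higher (14.6%, beside 4.51% of all genes) and 2 as lower.

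The mitochondrial genome took a larger part of the counts in FFPE of dogs 60460 and 60462. Its 15 features of 200 bp or more held 18.8% and 19.7% in dog 60126, 27.5% and 11.3% in dog 60460, and 39.6% and 15.1% in dog 60462 (FFPE first). FFPE was higher in 2 of 3 dogs and the groups overlapped. The mean within-pair difference was 13.2 ± 12.9 percentage points (SD, n = 3, exact sign-flip p = 0.5). It was 20.3 without dog 60126 and 7.58 without dog 60462. The fitted median of the 15 features was 0.86, with 1.42 and 0.52 in those fits. None of the 37 mitochondrial features passed with 3 dogs. The 10 most abundant genes of each library followed the same order: they held 17.5% and 18.4% in dog 60126, 25.2% and 10.7% in dog 60460, and 36.2% and 14.2% in dog 60462.

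Most of this difference in dog 60460 lay in the first 2 long features, at positions 70 to 1023 (954 bp) and 1091 to 2670 (1580 bp). They held 11.7% of all counts in FFPE and 0.577% in frozen tissue of dog 60460, a ratio of 20.2. In dog 60462 they held 11.01% and 1.69%, a ratio of 6.52, and in dog 60126 2.38% and 2.14%, a ratio of 1.11. The 13 other long features held 15.8% and 10.8% in dog 60460, 28.5% and 13.5% in dog 60462, and 16.4% and 17.6% in dog 60126. Their ratios were 1.47, 2.12 and 0.932. Of the mitochondrial counts alone, the first 2 features made up 42.3% in FFPE and 5.07% in frozen tissue of dog 60460. In dog 60462 they made up 27.3% and 11.1%, and in dog 60126 12.6% and 10.8%. In the frozen libraries this part ranged from 5.07% to 11.1%, below the 12.6% of the lowest FFPE library, so by this measure the groups did not overlap. This split of the long features is not 1 of the gene classes fixed for the comparison, so the lack of overlap carries no added weight.

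Single features differed within the genome. The 954 bp feature had 34922 CPM in FFPE and 1185 CPM in frozen tissue of dog 60460, and 45379 and 1764 CPM in dog 60462. In dog 60126 it had 2504 and 2380 CPM. The 1545 bp feature at positions 5349 to 6893 went the other way, with 13791 and 19807 CPM in dog 60460 and 15659 and 19159 CPM in dog 60462. It had 28684 and 27672 CPM in dog 60126. Of the 13 other long features, 11 had a ratio over 1 in dog 60460, 12 in dog 60462 and 1 in dog 60126. By log2 CPM, 47.5%, 48.1% and 49.7% of all 16853 genes tested were higher in FFPE of dogs 60460, 60462 and 60126.

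Mitochondrial features under 200 bp, of the size of transfer RNAs, differed most in dog 60462. The 22 of them held 0.0680% and 0.0532% of counts in dog 60126, 0.0754% and 0.0325% in dog 60460, and 0.739% and 0.0493% in dog 60462. FFPE was higher in all 3 dogs and the groups did not overlap (exact sign-flip p = 0.25). The mean difference was 0.249 ± 0.382 percentage points (SD, n = 3). It was 0.366 without dog 60126 and 0.0289 without dog 60462. The ratios were 1.28, 2.32 and 15. Of the 22, 15 had a ratio over 1 in dog 60126, 20 in dog 60460 and 22 in dog 60462. By log2 CPM, 49.7%, 47.5% and 48.1% of all 16853 genes tested were higher in FFPE of these dogs. The 68 bp feature at positions 4956 to 5023 had the highest ratio in dog 60462, at 3790 CPM against 27.4. It had 117 and 33.4 CPM in dog 60460, and 41.4 and 26.7 CPM in dog 60126.

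**Figure D4:**
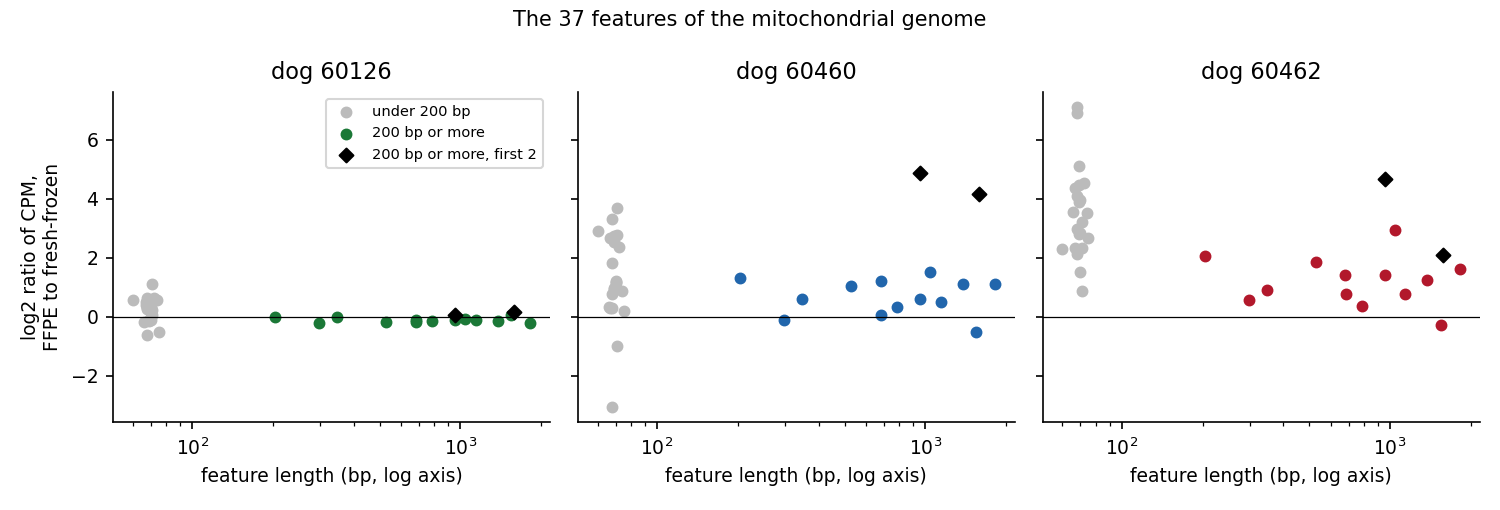
The log2 ratio of CPM, FFPE to fresh-frozen, of each of the 37 mitochondrial features against its length in bp (log axis), with 1 plot per dog. Black diamonds are the first 2 long features, with ratios of 29.5 and 17.8 in dog 60460 and 25.7 and 4.28 in dog 60462, and grey dots are features under 200 bp.

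When thinned to the same total, FFPE 60462 showed more genes than the other 5 libraries. Mitochondrial features took 40.3% of that total in it and 11.4% to 27.5% in the others, so fewer of its counts fell on other genes. With at least 1 count, 21345 genes were detected in the library labelled FFPE of dog 60126 and 21486 in its frozen library. The numbers were 19902 and 19871 in dog 60460, and 26124 and 26373 in dog 60462. At matched depth they were 15431 and 15538, 16448 and 15459, and 26124 and 17142. FFPE 60462 thus showed 8982 more genes than its frozen pair at the same total, FFPE 60460 989 more, and the library labelled FFPE of dog 60126 107 fewer. The mean difference was 3288 ± 4962 genes (SD, n = 3, exact sign-flip p = 0.5). It was 4985.5 without dog 60126 and 441 without dog 60462. With at least 5 counts the order was the same: 11635 and 11695, 12363 and 12091, and 17463 and 12074.

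**Figure D5:**
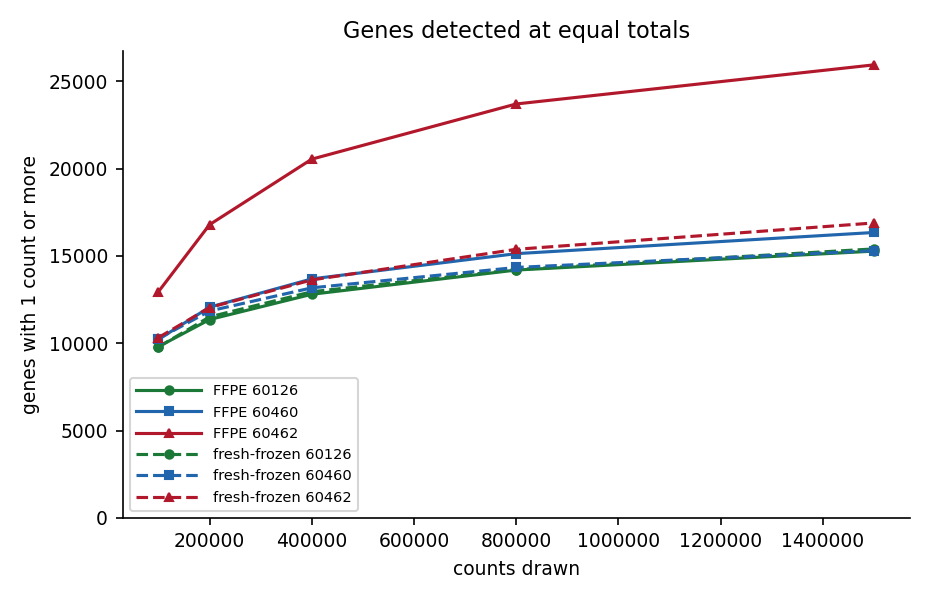
Genes with at least 1 count against the number of counts drawn for the 6 libraries; solid lines are FFPE, dashed lines fresh-frozen. At 1500000 counts FFPE 60462 reaches 25943 genes and the other 5 libraries lie between 15275 and 16888.

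Genes silent in frozen control brain were then counted. These are the 8445 genes with no count in the frozen libraries of 3 other control dogs, a choice that used none of the 6 libraries. Summed over them, the library labelled FFPE of dog 60126 had 81.5 CPM and its frozen library 96.1. FFPE 60460 had 232 CPM and frozen 60460 48.8. FFPE 60462 had 16225 CPM and frozen 60462 547, the highest of the 12 frozen libraries, of which 3 are at 0 by construction. A count was found for 16.5% and 18.5% of the silent genes in dog 60126, 11.6% and 8.49% in dog 60460, and 66.8% and 58.8% in dog 60462. At matched depth this was 120 and 140, 245 and 86, and 5644 and 807 genes.

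In FFPE 60462 the mean count of a silent gene was 1.58 for those of at most 300 bp, 2.24 for over 300 to 1000 bp, 3.78 for over 1000 to 2000 bp and 6.71 for over 2000 bp. In frozen 60462 it went from 0.470 to 3.78 over the same classes. It also grew with length in frozen 60126, from 0.236 to 0.595, and in frozen 60460, from 0.0590 to 0.226. In the library labelled FFPE of dog 60126 the mean count over these classes was 0.329, 0.217, 0.312 and 0.536. In FFPE 60460 it was 0.331, 0.175, 0.220 and 0.337, so neither of these libraries showed a steady rise. Per kb of exon the count fell with length in every library, though by unlike amounts. From the shortest to the longest class it went from 11.7 to 2.35 counts in FFPE 60462 and 3.50 to 1.33 in frozen 60462. In dog 60460 it went from 2.47 to 0.118 in FFPE and 0.439 to 0.0792 in frozen tissue. In dog 60126 it went from 2.45 to 0.188 and 1.76 to 0.209. Low counts over most of these silent genes were thus found in both libraries of dog 60462. Their part in the other results of this dog was not tested. Without dog 60462, 0 genes passed in either direction among 15432 tested.

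The FFPE effect was last set beside that in 5 tumour dogs with both kinds of library. The difference of the effect between control and tumour dogs passed for 0 of 18061 genes in an edgeR interaction test (333 at an unadjusted p under 0.05). It also passed for 0 by limma voom (373 unadjusted). Without dog 60126, 1 of 17176 genes passed. In the fit of all 8 dogs, the effect in tumour dogs alone called 58 genes higher (0.321%) and 6 lower (0.0332%). Short single-exon features had a fitted median of 2.46 in control and 2.69 in tumour dogs, and long mitochondrial features 0.83 and 0.90. Of 9 library measures, none passed when the 3 control and 5 tumour pairs were compared by exact two-sided permutations of 56 splits (smallest adjusted p = 0.924). For the share of short features the within-pair differences ran from 0.084 to 6.21 percentage points in control dogs and from -0.177 to 1.66 in tumour dogs. For long mitochondrial features they ran from -0.957 to 24.4 in control dogs and from 0.998 to 19.4 in tumour dogs. With 3 control dogs that differ this much, these tests do not show that the effects were alike.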

How the data were processed

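The authors deposited raw fragment counts per gene, made with featureCounts 1.6.0 per the file headers, without normalisation. The headers give strand option 1 (forward), a minimum mapping quality of 10, chimeric fragments left out, and Ensembl release 100 gene models of CanFam3.1. Genes with near-identical copies, and overlapping genes on 1 strand, can be undercounted. The submitters' processing notes also name fastp and STAR. Libraries were forward-stranded total RNA with identifiers of 12 nt, per the labels' protocols. No source used here says if duplicates were merged by identifier, so intervals cover counting error only.

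Totals of the 6 libraries ran from 1596967 to 32584840. Counts were fitted with edgeR 4.0.16 in R 4.3.3 (robust quasi-likelihood fits after filterByExpr and TMM), with dog as a block, and Benjamini-Hochberg adjustment at 0.05 over all genes tested. The log2 CPM of a library used a prior count of 2. Alternatives were DESeq2 1.42.0, limma 3.58.1 (voom), RLE scaling, no block, other filters, thinned counts, all 8 paired dogs, and each pair left out. The dog number in the labels pairs the libraries. Deviations from the preservation mean had a correlation of 0.0913, 0.596 and 0.457 between libraries of dogs 60126, 60460 and 60462. Tested on simulated data for this design with 16853 genes, the fit recovered 3% of 2-fold and 55% of 4-fold changes and called 7 of 16484 unchanged genes.

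Named genes were the 2 that rose and the 2 that fell with the largest smallest within-pair difference, among genes past the threshold whose average log2 CPM was 2 or more. None fell with 3 dogs, so 2 lower genes come from the fit without dog 60126. Gene lists and cell type markers could not be used, since 0 of 30951 identifiers paired with a name. The pairs, gene classes and tests were chosen with earlier results of these data known.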

Additional observations from a re-analysis of the deposited data

Results flagged for a closer look

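Within groups of 4 to 10 libraries, 15 sets of values were searched for 1 library far from the rest, and chance alone flags about 1 in 20 such groups. Among the 10 FFPE controls, the total of 32584840 counts in the library labelled FFPE of dog 60126 stood apart, the nearest being 9114673. In the same group FFPE 60462 stood apart in 3 measures. Long mitochondrial features, of 200 bp or more, held 39.6% of its counts, with 27.5% in the nearest library. Mitochondrial features under 200 bp held 0.739%, with 0.333% in the nearest. Genes silent in other frozen controls summed to 16225 CPM, with 3339 CPM in the nearest. Among the 6 frozen controls, frozen 60462 stood apart with 26373 genes detected, the nearest being 21486.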

How the results depend on the processing

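Of the count of 9 higher genes, 2 alternatives stayed within 1.5 times. Without the replicate block, which leaves the pairing by dog unused, 0 genes were higher. DESeq2 called 153, limma voom 31 and no filter on low counts 250. With a mean of at least 50 counts 0 were called, without mitochondrial and short single-exon features 2, and in the fit of 8 dogs 1. Thinning to the shallowest library gave 4, of which 0 were among the 9. Leaving out 1 dog gave 0 to 705 higher genes: 705 without dog 60126, 42 without 60460 and 0 without 60462. The count of 0 lower genes became 2 with DESeq2, 6 with no filter and 0 to 191 when leaving out 1 dog. Dropping the block also ended the call of ENSCAFG00000029523, and changed neither the count of lower genes nor the sign of a class median. The difference between control and tumour dogs gave 0 to 1 genes when 1 control dog was left out. The share of single-exon genes of over 300 and under 900 bp changed sign, from -0.0334 to 0.0349 percentage points, with mitochondrial genes left out of the total. ENSCAFG00000029523 kept its direction in 12 of 12 alternatives and did not pass in 5, and ENSCAFG00000031599 did not pass in 1 of the 7 that tested it. Filters on low counts left ENSCAFG00000031599 out of the fits without dog 60460 and without dog 60462. The same held for no block, thinned counts and a mean of at least 50 counts, so the 2 genes cannot be compared by these numbers. Class medians of short single-exon and mitochondrial features kept their direction in every alternative run. The causes were not tested. In data simulated with the totals and spread of the 6 libraries, 3% of 2-fold changes were recovered, so such differences were rarely detectable.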
